A study of Mus musculus with 4 samples.

Results

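The cells described here are 2281 barcodes of the haematopoietic stem cell (HSC) antibody gate that also carried CD34 protein, out of 22916 barcodes of the whole series that passed a filter (1000 or more genes detected, mitochondrial RNA 10% of UMIs or less). They were selected on 4 antibodies read in the same barcodes as the RNA. Each antibody count was expressed as its natural log relative to the barcode's mean over 6 antibodies (clr), and a member had CD150 above -0.28, CD48 at most 1.73, CD135 at most -0.94 and CD34 above -0.01. The antibody levels of CD150, CD48, CD135 and CD34, and through the mean those of CD201 and CD117 in part, are therefore a property of the choice and no finding, and the mRNAs of the same 4 proteins are given as a description only. No other RNA was used to choose them.

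The study profiled mouse bone marrow by CITE-seq, droplet single-cell RNA sequencing with barcoded antibodies. Donor-derived (CD45.2+), lineage-negative, Sca1+ Kit+ marrow, the LSK pool of stem and progenitor cells, was collected from recipients 10 weeks after they were transplanted. A single library (1 each) represents control marrow, Mll3 deleted marrow, Mll4 deleted marrow and Mll3/4 deleted marrow, and all 4 libraries share the transplantation setting. Mll3 and Mll4 are the proteins of Kmt2c and Kmt2d, large histone H3 lysine 4 methyltransferases that act at enhancers. The labels name no strain, Cre driver, deletion agent or number of mice per library. The control library gave 722 members, the Mll3 deleted library 1456 and the Mll4 deleted library 103. In the Mll3/4 deleted library 6 of 4748 kept barcodes met the same thresholds, and that library was left out.

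In mouse marrow CD34 divides cells that otherwise share an HSC surface phenotype. Long-term repopulating, mostly dormant stem cells lack CD34, and cells with the same CD150+ CD48- CD135- phenotype that display CD34 are generally placed just downstream, with shorter-lived repopulation and more frequent division. The next step down that is used here for comparison is a CD150- CD48- CD135- gate, written MPP1 gate.

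The RNA of the chosen cells carried the marker genes of stem cells, as did that of the neighbouring gates. All 8 HSC marker genes (Slamf1, Cd34, Meis1, Mecom, Procr, Hlf, Mllt3 and Kit) were detected in every library, and 714 of 722 control members, 1445 of 1456 Mll3 deleted members and 103 of 103 Mll4 deleted members held UMIs (unique transcript molecules) of at least 3 of them. This does not set the members apart. In control, 947 of 958 CD34 low HSC gate cells and 1063 of 1071 MPP1 gate cells held as many. The proteins of Slamf1 and Cd34 were also used to choose the cells. Cd34 mRNA, as CPM (UMIs of the gene scaled to a common total, over the members' summed RNA), was 193.6 CPM in control, 203.7 CPM in Mll3 deleted and 133.6 CPM in Mll4 deleted members. In the CD34 low remainder of the HSC gate it was 65.3, 61.5 and 46.8 CPM in the same order. Slamf1, which encodes CD150, ran the other way, at 19.2, 19.4 and 14.6 CPM in members and 36.9, 38.3 and 47.0 CPM in CD34 low cells. Flt3, which encodes CD135, was at 16.4, 13.5 and 15.3 CPM in members against 4.51, 1.91 and 3.50 CPM in CD34 low cells. The CD48 threshold was wide: the median CD48 antibody count of control members was 146, above their median CD150 count of 107.5. By these levels the members were Slamf1-expressing, Cd34-expressing, Meis1-expressing cells, with a CD48 limit that admits CD48-bearing barcodes.

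Markers of neutrophil precursors, mast cells, plasma cells and erythroid cells were lower in control and Mll3 deleted members than in Mll4 deleted members. Erythroid markers summed to 67.1, 48.4 and 262 CPM in control, Mll3 deleted and Mll4 deleted members. The sums of monocyte markers (282, 262 and 177 CPM) and megakaryocyte markers (129, 88.1 and 44.1 CPM) ran the other way. By detection the monocyte markers did not: 6, 7 and 8 of 8 were found. At least 3 of them were held by 7 of 722, 7 of 1456 and 10 of 103 members. Of 8 neutrophil precursor markers, 6, 7 and 7 were detected in control, Mll3 deleted and Mll4 deleted members, with summed levels of 14.8, 6.50 and 135 CPM, and Mmp8 was at 0 in all 3 libraries. The 8 mast cell or basophil markers summed to 7.60, 1.43 and 107 CPM, with Prss34 at 0 in all 3 libraries. The mature B or plasma cell markers summed to 30.8, 35.6 and 226 CPM, with Cd22 and Ms4a1 at 0 throughout. All 6 granulocyte-monocyte progenitor markers were detected (320.4, 489 and 409 CPM), and at least 3 of them were found in 10 of 722 control, 21 of 1456 Mll3 deleted and 87 of 103 Mll4 deleted members. The Mll4 deleted library was alike in its other gates, with 213 of 246 CD34 low and 223 of 285 MPP1 gate cells. Median depth also differed, at 28172 UMIs in Mll4 deleted and 12542.5 in control members, and its part was not tested. The part of such RNA in the differences between libraries was not tested.

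The members' RNA amounted to 10260932 UMIs in control, 27215917 in Mll3 deleted and 3015742 in Mll4 deleted libraries. Their median depth was 12542.5, 16392.5 and 28172 UMIs per barcode, so the Mll4 deleted members were the fewest and the deepest. No member barcode was shared between libraries, while 7 to 14 kept barcodes were shared by pairs of libraries. Barcodes within 0.1 clr of the CD34 threshold had a median of 85 CD34 counts just inside and 76 just outside in control, 123 and 107 in Mll3 deleted, and 91 and 70 in Mll4 deleted cells. The corresponding Cd34 mRNA was 134.6 and 120.1 CPM, 127.8 and 120.003 CPM, and 88.3 and 100.4 CPM, so cells on the 2 sides of the threshold were much alike and the gate cuts a gradient.

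The CD34 high cells made up different shares of the 3 libraries. They were 9.93% of kept barcodes in control (722 of 7274, 95% exact binomial interval 9.25 to 10.6%), 23.9% in Mll3 deleted (1456 of 6101, 22.8 to 24.96%) and 2.15% in Mll4 deleted marrow (103 of 4793, 1.76 to 2.60%). Within the HSC gate the CD34 high share was 43.0% (40.6 to 45.4%) in control, 54.7% (52.7 to 56.6%) in Mll3 deleted and 29.5% (24.8 to 34.6%) in Mll4 deleted cells. The Mll3 deleted library was the highest and the Mll4 deleted library the lowest on both denominators, and none of the intervals overlapped. These intervals cover counting error only, and with 1 library per genotype no test between genotypes exists. The filter also cut the libraries unequally. It kept 7274 of 7682 deposited barcodes in control, 6101 of 6560 in Mll3 deleted and 4793 of 7702 in Mll4 deleted marrow. The part of this loss in the shares of kept barcodes was not tested. The order of Mll3 deleted and control within the gate depends on how CD34 is scaled. With CD34 taken relative to CD117 antibody alone, at a threshold that leaves the control share at 43.0%, the Mll3 deleted share was 44.0% (42.1 to 45.9%), which overlaps the control interval. The Mll3 deleted library had about as many CD34 counts as CD150 counts in members (medians of 265 and 260), and its median CD117 count of 542 was above the 255.5 of control and the 267 of Mll4 deleted members. Total antibody counts differed too, with medians of 751 in control, 1374 in Mll3 deleted and 796 in Mll4 deleted members. As a share of them, CD117 was 33.6, 37.5 and 34.9% in the same order, so raw counts are not on 1 scale across libraries. The median CD48 and CD201 counts of Mll3 deleted members (144.5 and 24) were not higher than those of control members (146 and 29).

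**Figure D1:**
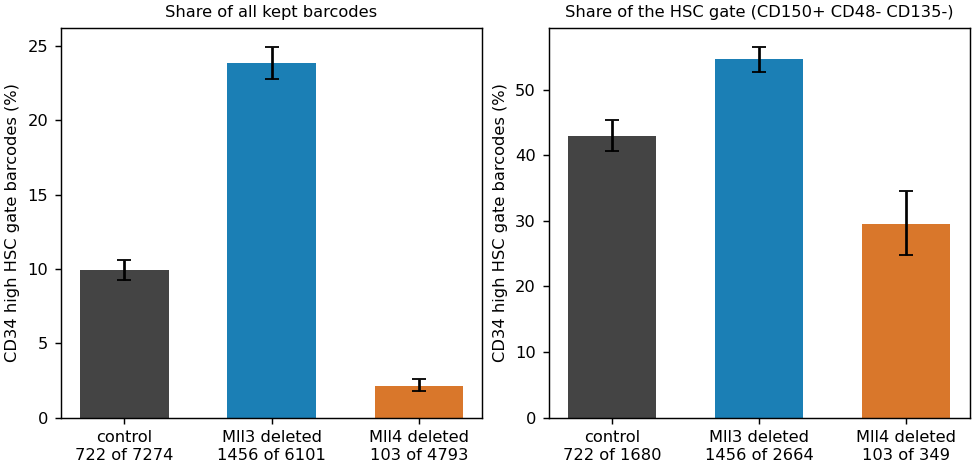
Bars give the percentage of barcodes in the CD34 high HSC gate, of all kept barcodes (left) and of the HSC gate (right), in the control, Mll3 deleted and Mll4 deleted libraries, with 95% exact binomial intervals. The Mll3 deleted library is highest in both panels (23.9% and 54.7%) and the Mll4 deleted library lowest (2.15% and 29.5%).

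CD201 and CD117 were stained but had no threshold of their own. Both enter the mean that each clr value is taken against, so a barcode with few CD201 counts passes the CD34 threshold more easily, and the choice of cells sets part of their CD201 level. Their values are given as a description. CD201 is the endothelial protein C receptor, a surface protein enriched on dormant stem cells, and CD117 is the Kit receptor. The median CD201 count was 29 in control members against 61 in CD34 low HSC gate cells. It was 24 against 92 in the Mll3 deleted library and 30 against 49 in the Mll4 deleted library. The CD201 median was lower on the CD34 high side in all 3 libraries, and how much of this the choice of cells sets was not tested. CD117 moved little, with medians of 255.5 against 236 in control and 267 against 263 in Mll4 deleted cells, and was higher in Mll3 deleted members at 542 against 388.5. Procr, the gene of CD201, was at 51.2, 29.2 and 28.2 CPM in members against 66.6, 68.0 and 43.8 CPM in CD34 low cells, a log2 difference of -0.83 ± 0.14 (SE, from edgeR's quasi-likelihood fit). Since the choice of cells sets part of the CD201 level, it may set part of this difference too, which is given as a description.

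**Figure D2:**
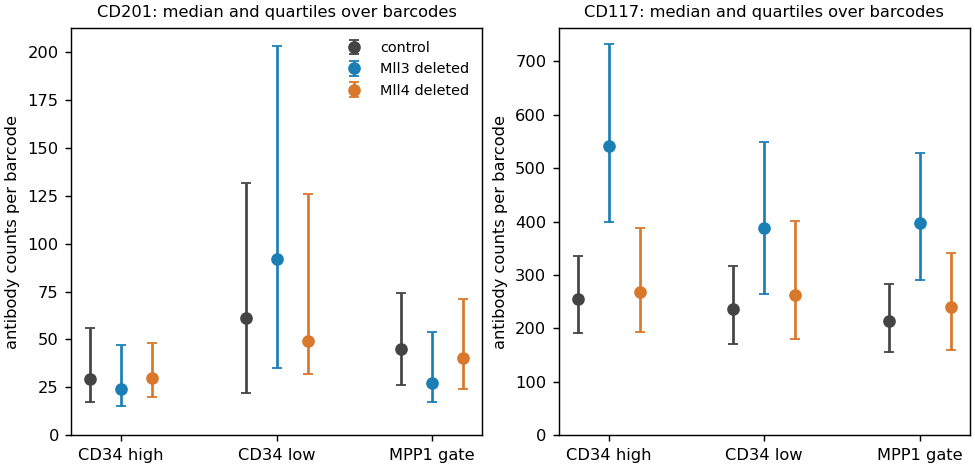
Points are median antibody counts per barcode with quartiles, for CD201 (left) and CD117 (right), in the 3 gates of each library. CD201 is lower in CD34 high than in CD34 low HSC gate cells of each library (29 against 61, 24 against 92 and 30 against 49).

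The CD34 high cells were next compared with the CD34 low cells of the same HSC gate, which asks how the RNA of these phenotypic stem cells differs with CD34. The 2 sides differed in CD48 as well. Its median count was 146 against 104 in control and 144.5 against 85 in Mll3 deleted cells, but 116 against 127 in Mll4 deleted cells. The part of CD48 in the differences below was not tested. UMIs were summed per gate and library and fitted with the library as a block, so that n is 3 libraries of 3 genotypes and each difference is an average over them. Of 12978 genes tested, 829 were higher (6.39%) and 796 lower (6.13%) in CD34 high cells at an adjusted p under 0.05. The number called rests on the larger libraries: the 1625 calls became 1052 without the control library and 410 without the Mll3 deleted library, of which 974 and 401 were among the 1625. DESeq2 called 836, of which 834 were among them. CD34 high cells were also deeper, at 12542.5 against 11245 median UMIs in control, 16392.5 against 12984 in Mll3 deleted and 28172 against 22683.5 in Mll4 deleted cells. With each cell thinned to 3000 UMIs, 830 genes were called, 728 of them in common.

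The long-term stem cell list leaned to the CD34 low side. Of its 24 genes, 18 were lower and 0 higher in CD34 high cells, with a median log2 difference of -0.48 against -0.00462 over all genes tested. The 18 include Procr, whose protein enters the clr mean used to choose the cells. In such sums, fewer cells with a transcript and less of it per cell cannot be told apart. Without the Mll3 deleted library 11 were lower. Sult1a1, a sulfotransferase, was at 8.38, 9.08 and 5.64 CPM in control, Mll3 deleted and Mll4 deleted members and at 27.6, 43.3 and 22.1 CPM in CD34 low cells, a log2 difference of -2.06 ± 0.14 (adjusted p = 2.3e-06, edgeR). Mllt3, a chromatin reader that sustains stem cell self-renewal, was at 95.6, 78.6 and 109 CPM in members and 160, 211 and 221 CPM in CD34 low cells (-1.11 ± 0.13, adjusted p = 0.00022, edgeR). Tgm2, a transglutaminase, fell by 1.19 and Fgd5, an exchange factor used as a stem cell reporter, fell by 0.85 on the log2 scale. In each of these genes the 3 CD34 high sums lay below the 3 CD34 low sums.

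Other genes of that list differed less. Mecom, a transcription factor required for stem cell maintenance, was at 131, 121 and 341 CPM in members and 160, 165 and 423 CPM in CD34 low cells (-0.37 ± 0.05, adjusted p = 0.00062, edgeR). The Mll4 deleted library was the high one in both gates. The stem cell transcription factors Hlf and Meis1 had log2 differences of -0.03 ± 0.06 and -0.01 ± 0.06 (adjusted p = 0.87 and 0.98, edgeR). Meis1 was at 268, 299 and 264 CPM in members and 263, 310 and 250 CPM in CD34 low cells. Hoxa9 and Tal1, with differences of 0.07 and 0.01, were also not called.

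Platelet-lineage genes behaved like the stem cell list. Of 15 megakaryocyte priming genes tested, 10 were lower and 0 higher (median log2 difference of -0.37), 5 were lower without the control library, and 4 with cells thinned to equal depth. Vwf, which encodes von Willebrand factor and marks platelet-biased stem cells, was at 5.17, 11.9 and 15.6 CPM in members and 28.9, 60.4 and 68.0 CPM in CD34 low cells. Its log2 difference was -2.35 ± 0.15 (adjusted p = 1.6e-06, edgeR), and the 3 members' sums lay below all 3 CD34 low sums. Pf4, platelet factor 4, was at 54.1, 33.5 and 18.9 CPM in members against 170, 60.9 and 110 CPM (-1.44 ± 0.20, adjusted p = 0.00067, edgeR). Itga2b, the CD41 integrin, had a difference of -0.28 ± 0.13 that was not called. Of 9 erythroid priming genes tested, 4 were lower (Aqp1, Epor, Car2 and Blvrb) and 0 higher, but 0 were lower without the control library and 1 without the Mll3 deleted library.

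Cell cycle genes had the highest share of genes called higher among the 14 lists. All 20 genes of the G2 and mitosis list were higher, with a median log2 difference of 0.56, and 19 of 20 S phase genes were higher, with a median of 0.36. Without the Mll3 deleted library 12 and 10 were called. With cells thinned to equal depth, 18 and 17 were called. Mki67, the proliferation antigen, was at 343, 416 and 483 CPM in members and 234, 237 and 259 CPM in CD34 low cells, a difference of 0.72 ± 0.09 (adjusted p = 0.00036, edgeR). Top2a, topoisomerase II alpha, was at 382, 478 and 772 CPM against 269, 259 and 451 CPM (0.69 ± 0.10, adjusted p = 0.00076, edgeR). For Mki67 the 2 gates did not overlap, whereas for Top2a the CD34 low sum of the Mll4 deleted library exceeded the control members' sum. Among S phase genes, Tyms, thymidylate synthase, rose by 0.46 ± 0.05 and Pcna, the replication clamp, by 0.27 ± 0.05, and Chaf1b (0.12 ± 0.05) was the gene not called.

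The G2 and mitosis RNA sat in part of the cells. At equal depth of 3000 UMIs, 44.9% of control, 34.2% of Mll3 deleted and 21.4% of Mll4 deleted members held no UMI of the list, against 56.9%, 56.9% and 43.7% of CD34 low cells. The tenth of control members richest in the list held 64.6% of its UMIs, and in CD34 low cells that share was 80.5%. Of 3360 genes ranked among members by the ratio of variance to mean in UMIs per cell, averaged over libraries, the first 8 were Hist1h2ap (20.9), Malat1 (9.34), Hist1h1b (8.80), Hist1h2ae (5.94), Hmgb2 (4.73), Hist1h1e (3.75), Mki67 (3.68) and Top2a (3.29). These are 4 histone genes, a nuclear long non-coding RNA, a chromatin protein and 2 proliferation genes, and they were named after their values were seen.

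Many G2 and mitosis genes carry CCAAT boxes, bound by the factor NF-Y, and some carry the cell cycle genes homology region (CHR), bound by the MuvB core of cell cycle repressor and activator complexes. As these 20 genes moved together, their upstream sequence was read from RefSeq promoter windows (GRCm38.p6), of which 17 of the 20 genes had an entry. CCAAT was searched on both strands (CCAAT, and ATTGG as its complement) in the 250 bases before the start. CHR was searched on both strands as TTTGAA (complement TTCAAA) and as the palindrome TTCGAA. Matches of the 2 motifs were counted separately, whether or not they overlapped. CCAAT letters were found in 15 of 17 windows (88.2%), against 34.5% of all 27025 windows and 36.7% of the windows of 9973 tested genes, and 2 or more copies in 12 of 17 (70.6%), against 10.54% and 13.9%. CHR letters were found in 7 of 17 (41.2%), against 17.4% and 12.5%. For the S phase list the figures were 11 of 17 (64.7%) and 3 of 17 (17.6%). A match is a description of letters, not a binding site. Shown for 4 genes that rose, as the 150 bases that end just before the most upstream annotated exon, 5′ to 3′ on the gene's strand, with the CCAAT and CHR letters in capitals:
Ccnb2, cyclin B2, chr9:70421555-70421704, minus strand: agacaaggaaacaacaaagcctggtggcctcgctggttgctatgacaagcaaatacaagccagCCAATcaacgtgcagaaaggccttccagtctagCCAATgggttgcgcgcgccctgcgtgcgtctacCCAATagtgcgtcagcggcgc
Ube2c, a mitotic ubiquitin-conjugating enzyme, chr2:164769748-164769897, plus strand: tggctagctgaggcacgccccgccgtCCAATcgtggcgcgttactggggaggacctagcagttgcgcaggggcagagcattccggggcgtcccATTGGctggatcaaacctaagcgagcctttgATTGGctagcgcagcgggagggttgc
Top2a, chr11:99024190-99024339, minus strand: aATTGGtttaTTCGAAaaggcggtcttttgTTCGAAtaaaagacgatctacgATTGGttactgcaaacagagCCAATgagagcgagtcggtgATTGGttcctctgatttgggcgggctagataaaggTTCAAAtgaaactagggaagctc
Cdk1, the mitotic cyclin-dependent kinase, chr10:69352939-69353088, minus strand: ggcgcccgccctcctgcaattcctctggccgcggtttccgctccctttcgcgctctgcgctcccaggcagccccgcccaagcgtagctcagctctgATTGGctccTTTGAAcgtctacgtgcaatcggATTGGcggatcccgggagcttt
The stretch of Ccnb2 holds 3 CCAAT matches, that of Ube2c 3, that of Top2a 4 with 3 CHR matches, and that of Cdk1 2 with 1 CHR match. In the members Ccnb2 rose by 0.51 ± 0.09, Ube2c by 0.62 ± 0.15 and Cdk1 by 0.55 ± 0.11 on the log2 scale relative to CD34 low cells (adjusted p = 0.003, 0.013 and 0.0046, edgeR).

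Genes of G1 entry were split. Of 14, 7 were higher and 4 lower, and without the Mll3 deleted library 3 were higher and 2 lower (without the Mll4 deleted library 4 were higher, without control 2 were lower). Cdk6, the D-type cyclin kinase whose level sets how quickly stem cells leave quiescence, was at 227, 241 and 314 CPM in members and 138, 120 and 193 CPM in CD34 low cells, a difference of 0.79 ± 0.10 (adjusted p = 0.00045, edgeR). Ccne2, cyclin E2, rose by 0.60 ± 0.10 and Myb, a progenitor transcription factor, by 0.36 ± 0.07. Against them Mycn, at 54.9, 84.5 and 51.7 CPM in members and 79.7, 183 and 117 CPM in CD34 low cells, fell by 0.95, and cyclin D1 (Ccnd1) fell by 0.56. Of 16 quiescence and cell cycle inhibitor genes, 6 were lower, among them Klf2 (-1.04), Cdkn1a (-1.02), Ndn (-0.86) and Cdkn1c (-0.45), and 1, Cdkn2c, was higher (0.41). Without the Mll3 deleted library 1 of these was lower and Cdkn2c was not called (adjusted p = 0.07, edgeR). Ribosome biogenesis genes showed no such shift: 0 of 16 were called in either direction by edgeR, with differences between -0.08 and 0.19.

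Levels followed the CD34 antibody across the gate and not only at its threshold. In 4 bins of CD34 clr, from at most -1 to above 1, Vwf in control cells was at 54.4, 24.0, 5.37 and 3.15 CPM and in Mll3 deleted cells at 104.5, 48.5, 14.8 and 4.47 CPM. Cdk6 ran upward, at 88.9, 146.9, 222.7 and 274.5 CPM in control and 75.7, 132.2, 223.4 and 287.0 CPM in Mll3 deleted cells. Mllt3 ran downward, at 222.2, 148.5, 98.0 and 72.6 CPM in control and 332.6, 177.8, 90.04 and 49.2 CPM in Mll3 deleted cells. The 3 genes kept their order over the bins in both libraries, and over the 3 bins of at least 20 barcodes in the Mll4 deleted library, whose top bin held 13 barcodes. The G2 and mitosis sum did not follow a steady course in control, at 1600, 1605, 2101 and 1826 CPM, while it rose at every step in Mll3 deleted cells, at 1361, 1687, 2513 and 3463 CPM. The median CD150 count fell along the same bins, from 393 to 79 in control and from 882 to 161 in Mll3 deleted cells, so CD34 and CD150 cannot be told apart as the variable along this axis. These are descriptions over bins of the same libraries.

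**Figure D3:**
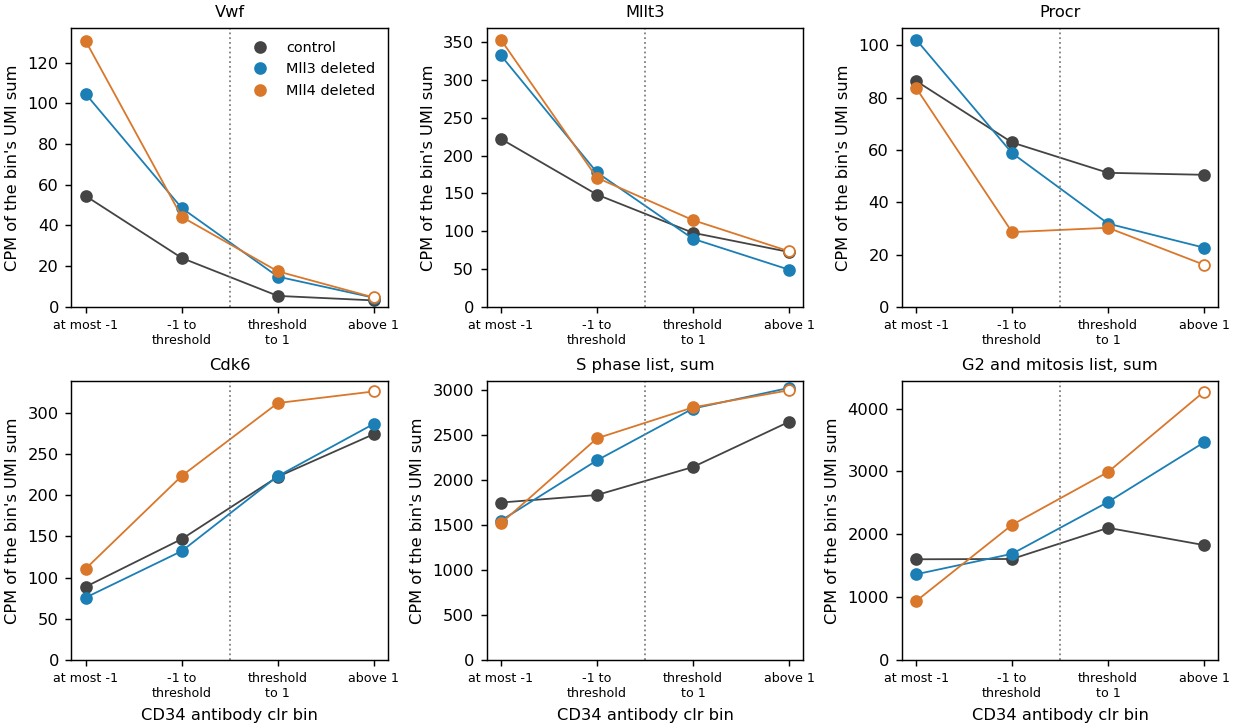
CPM of summed UMIs in 4 bins of CD34 antibody clr within the HSC gate, by library, for Vwf, Mllt3, Procr, Cdk6 and the summed S phase and G2 and mitosis lists; the dotted line is the threshold that separates CD34 low from CD34 high cells and the open points rest on 13 barcodes. Vwf falls from 54.4 to 3.15 CPM and Cdk6 rises from 88.9 to 274.5 CPM across the control bins.

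Lineage lists on the CD34 high side were mixed. Of 12 lymphoid priming genes tested, 4 were higher (Satb1, 1.15; Cd52, 1.01; Ikzf1, 0.28; Tcf3, 0.19) and 1, Ighm, was lower (-2.47). Without the control library 2 were higher, and without the Mll3 deleted library 0. Ighm was not called without the Mll4 deleted library (adjusted p = 0.078, edgeR). It was at 213 CPM in control CD34 low cells against 15.5 CPM in members, and its difference became 0.08 when barcodes in which markers of another cell type exceeded 0.5% of UMIs were left out (0, 0 and 1 member and 2, 2 and 6 CD34 low barcodes). Of 18 myeloid priming genes, 2 were higher, Cebpa (1.34), a master factor of granulocyte fate, and Csf3r (0.59), the G-CSF receptor, and 3 were lower, Ly6c2, Igsf6 and Gfi1. Cebpa was low in level, at 3.22, 6.03 and 2.32 CPM in members and 1.53, 1.58 and 2.07 CPM in CD34 low cells, and was not called without the Mll3 deleted library (adjusted p = 0.49, edgeR). Csf3r was not called without the control (adjusted p = 0.1) or the Mll3 deleted library (adjusted p = 0.16, edgeR). Ly6c2 and Igsf6 were not called without the barcodes rich in other markers (adjusted p = 0.078 and 0.37, edgeR), and without the Mll3 deleted library all 3 genes lost their call.

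Interferon response and immediate early genes that were called were lower in CD34 high cells, while MHC class II genes were called in both directions. Of 16 interferon response genes, 10 were lower and 0 higher (median -0.33), with 5 lower without control and 2 without the Mll3 deleted library. Iigp1, an interferon-induced GTPase, was at 58.9, 123 and 61.3 CPM in members and 96.0, 219 and 79.1 CPM in CD34 low cells. Of 11 immediate early genes tested, 8 were lower and 0 higher (median -0.36), and 1 was lower without the Mll3 deleted library. Of 10 MHC class II genes, 4 were lower (Cd74, -1.07; H2-Eb1, -0.71; H2-Aa, -0.68; H2-Ab1, -0.34) and 1, H2-Ob, a brake on peptide loading, was higher (1.23 ± 0.18). Without control 2 were lower, and 1 without the Mll3 deleted library or with the highest doublet scores removed. Of the 15 genes of H3K4 methyltransferase complexes, 1, Paxip1, was higher (0.33), and it was not called without control (adjusted p = 0.14) or without the Mll3 deleted library (adjusted p = 0.45, edgeR).

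The genes with the largest differences among those of the same sign in all 3 libraries and at least 10 CPM on average were the following. Higher in CD34 high cells were Mc5r (1.31), Spns3 (1.23), Ect2 (1.20), Nkg7 (1.19), Bin1 (1.05), Serpinb1a (1.03), Slc22a3 (1.02) and Cd52 (1.01). Mc5r, a melanocortin receptor, was at 24.6, 15.5 and 35.8 CPM in members and 10.8, 4.54 and 17.0 CPM in CD34 low cells. Nkg7, a granule membrane protein, was at 78.6, 47.8 and 30.5 CPM against 34.8, 18.1 and 15.4 CPM. Ect2, which drives cytokinesis, was at 23.7, 25.1 and 19.9 CPM against 13.1, 8.64 and 7.64 CPM. In each library the CD34 high sum of these 8 genes was the higher one, and Cd52 was not called without the control (adjusted p = 0.166) or the Mll3 deleted library (adjusted p = 0.427, edgeR).

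Lower were Vwf, Neo1 (-2.26), Clu (-2.17) and Gimap4 (-2.06), together with 4 neutrophil genes, Lcn2 (-5.45), Camp (-4.40), S100a9 (-4.20) and S100a8 (-3.96). Clu, the chaperone clusterin, was at 0.585, 4.81 and 5.97 CPM in members and 5.07, 20.1 and 23.6 CPM in CD34 low cells. Neo1, which encodes the receptor neogenin, was at 2.44, 1.65 and 6.63 CPM in members against 5.15, 9.07 and 43.8 CPM, and was not called without the Mll3 deleted library (adjusted p = 0.0531, edgeR). S100a8 was at 4.29, 2.17 and 62.0 CPM in members against 5.71, 39.8 and 1212 CPM. The 4 neutrophil genes rested on few barcodes: without those rich in other markers their differences were -0.95, -0.03, -0.20 and 0.02 (adjusted p = 0.237, 0.98, 0.493 and 0.974, edgeR). Vwf differed by as much without those barcodes (-2.37).

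The same cells were also compared with the MPP1 gate, which lacks CD150. That gate has no CD34 threshold and carried more CD34 than the members. Its median CD34 counts were 184, 441.5 and 199 in control, Mll3 deleted and Mll4 deleted cells, against 129, 265 and 139 in members. Its median CD48 counts were also higher, at 216, 239 and 152 against 146, 144.5 and 116. Of 12978 genes, 549 were higher (4.23%) and 569 lower (4.38%) in CD34 high HSC gate cells. The 1118 calls became 521 without the control library and 404 without the Mll3 deleted library, and DESeq2 called 559. The CD34 high sums serve in both gate comparisons, so their results are not independent. Of the 24 long-term stem cell genes, 13 were higher and 4 lower (median 0.27), with 8 higher without the Mll3 deleted library and 2 lower without control. The summed CPM of the list did not share that direction in each library: it was 3198, 2696 and 2821 CPM in CD34 high cells and 3341, 2669 and 2564 CPM in MPP1 gate cells. Gata2, a stem cell transcription factor, was at 145, 150 and 133 CPM in CD34 high cells and 91.6, 97.9 and 76.4 CPM in MPP1 gate cells (0.66 ± 0.05, adjusted p = 4.1e-06, edgeR). Hlf was higher in the MPP1 gate, at 505, 423 and 454 CPM against 359, 297 and 412 CPM (-0.41 ± 0.06, adjusted p = 0.0015, edgeR). Ly6a, the Sca1 antigen, also was (-0.50 ± 0.10).

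Platelet and erythroid genes had the list medians farthest from 0 among the 14 lists. Of 15 megakaryocyte priming genes, 11 were higher and 0 lower (median 1.06), with 6 higher without the Mll3 deleted library, and of 9 erythroid priming genes 6 were higher and 0 lower (median 1.13). Gata1, the factor shared by both lineages, was at 8.28, 7.46 and 3.98 CPM in CD34 high cells and 1.41, 0.913 and 0.575 CPM in MPP1 gate cells, a difference of 2.82 ± 0.27 (adjusted p = 5.1e-05, edgeR). Vwf was at 2.23, 1.96 and 1.01 CPM in the MPP1 gate (2.38 ± 0.26, adjusted p = 0.00014, edgeR). Epor, the erythropoietin receptor, was at 3.70, 7.28 and 3.98 CPM against 1.19, 1.24 and 0.575 CPM (2.26 ± 0.24). For these 3 genes the CD34 high sums all lay above the MPP1 sums, so the members held Vwf at levels between those of the CD34 low and the MPP1 gates in each library.

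Myeloid and lymphoid lists ran the other way. Of 18 myeloid priming genes, 0 were higher and 12 lower (median -0.70), and of 12 lymphoid priming genes 0 were higher and 6 lower (median -0.51). Without the Mll3 deleted library 4 and 2 were lower. Satb1, a chromatin organiser of lymphoid priming, was at 4.68, 7.09 and 4.97 CPM in CD34 high cells and 14.0, 28.4 and 9.64 CPM in MPP1 gate cells (-1.73 ± 0.24, adjusted p = 0.00063, edgeR). Cebpa was at 3.22, 6.03 and 2.32 CPM against 7.499, 15.8 and 3.88 CPM (-1.24 ± 0.24, adjusted p = 0.0057, edgeR). Both genes therefore had intermediate levels in the members, above CD34 low and below MPP1 gate cells in each library. For Cebpa in the Mll4 deleted library the members' level rests on 7 UMIs and was close to that of CD34 low cells. That step is too small to be told from counting error.

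Cell cycle genes that were called were again higher in the CD34 high cells. Of 20 S phase genes, 12 were higher and 0 lower (median 0.22), with 4, 5 and 4 higher without the control, Mll3 deleted and Mll4 deleted library. Of 20 G2 and mitosis genes, 6 were higher and 0 lower (median 0.32), 0 were higher without the Mll4 deleted library, and 18 when only these 2 gates were fitted. By library, the G2 and mitosis median log2 ratio was 0.48 in control, 0.15 in Mll3 deleted and 0.57 in Mll4 deleted cells, against 0.32, 0.76 and 0.77 relative to CD34 low cells. The difference between the 2 comparisons was not tested. Mki67 was at 224, 362 and 307 CPM in MPP1 gate cells, against 343, 416 and 483 CPM in CD34 high cells (0.45 ± 0.09, adjusted p = 0.0069, edgeR). The summed G2 and mitosis RNA of the CD34 high cells was the highest of the 3 gates in each library, at 2075, 2778 and 3175 CPM against 1604, 1618 and 1813 CPM in CD34 low and 1506, 2535 and 2138 CPM in MPP1 gate cells. Median depth was also highest in the CD34 high cells of each library, and its part in this order was not tested beyond the thinned fit, in which 5 G2 and mitosis genes were higher than in the MPP1 gate. Of the interferon list, 0 were higher and 6 lower, with 2 lower without control and 1 without the Mll3 deleted library.

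The genes with the largest differences from the MPP1 gate were, on the higher side, Nupr1 (1.70), Tgm2 (1.55), Erp27 (1.48), Pf4 (1.29), Apoe (1.21), Itga2b (1.21), Gp9 (1.17) and Tgfbr3 (1.17). Nupr1, a stress-induced chromatin protein, was at 106.5, 94.8 and 113.7 CPM in CD34 high cells and 41.8, 30.0 and 19.0 CPM in MPP1 gate cells. Apoe, apolipoprotein E, was at 601, 574 and 108 CPM against 237, 272 and 43.9 CPM. Every library had the higher sum in CD34 high cells for these 8 genes, 3 of which belong to the megakaryocyte list. On the lower side were Slc16a11 (-2.17) and the chemokine Ccl9 (-2.14), with 6 genes of neutrophils, Lcn2, Chil3, Camp, Wfdc21, S100a9 and S100a8 (-4.76 to -6.39), for which the adjusted p ran from 0.0511 to 0.771 (edgeR) once barcodes rich in other markers were left out (22 of the 285 MPP1 gate barcodes of the Mll4 deleted library).

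**Figure D4:**
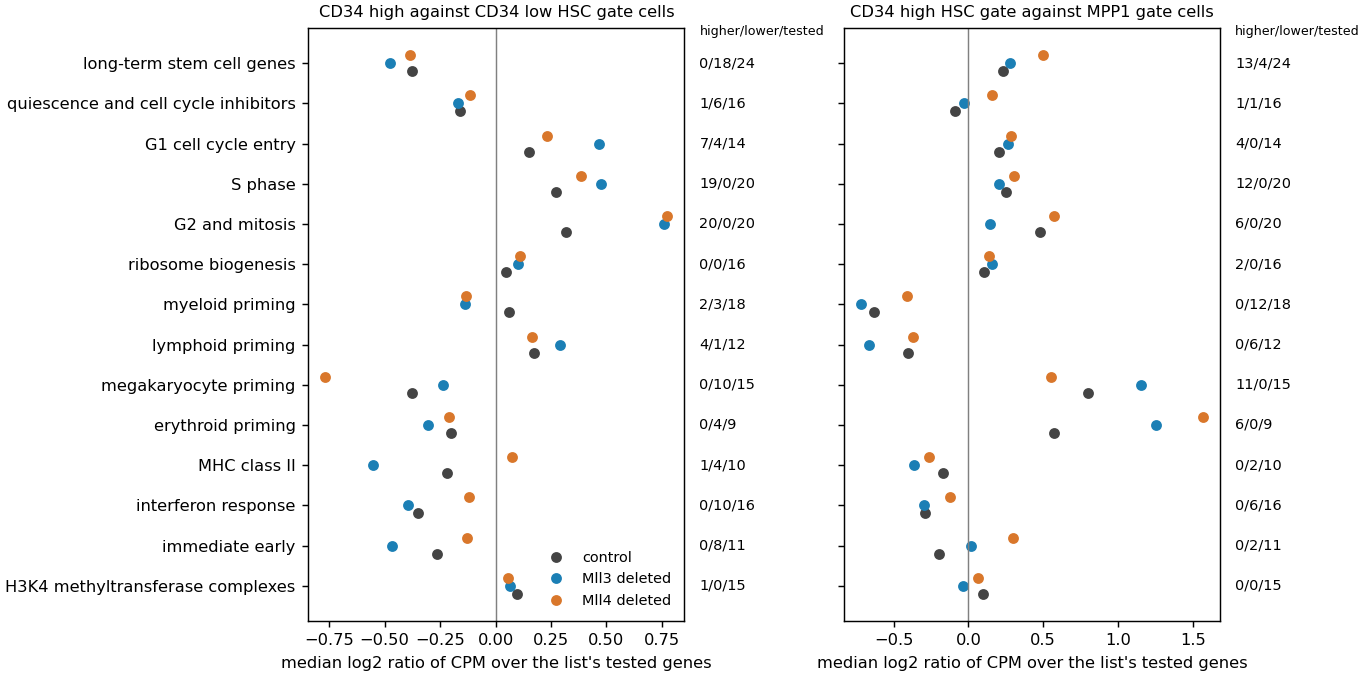
Points are the median log2 ratio of CPM over each gene list's tested genes in the control, Mll3 deleted and Mll4 deleted libraries, for CD34 high against CD34 low HSC gate cells (left) and against MPP1 gate cells (right); numbers beside each row are genes called higher, called lower and tested. G2 and mitosis genes lie right of 0 in both panels (20 and 6 of 20 called higher), and megakaryocyte genes change side (10 of 15 lower, then 11 of 15 higher).

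The genotypes were last compared within the CD34 high cells, which asks how these cells differ when Mll3 or Mll4 is deleted. With 1 library each there is no test and no replicate check; log2 ratios of CPM are given with 95% Poisson intervals that cover counting error only. The targeted genes come first. Kmt2c (Mll3) was at 86.5 CPM (80.9 to 92.4) in control, 37.5 CPM (35.2 to 39.8) in Mll3 deleted and 68.6 CPM (59.6 to 78.7) in Mll4 deleted members. Kmt2d (Mll4) was at 25.1 CPM (22.2 to 28.4), 21.7 CPM (19.96 to 23.5) and 23.5 CPM (18.4 to 29.7). Kmt2c was thus lower in the library labelled Mll3 deleted, while Kmt2d did not differ beyond counting error in the library labelled Mll4 deleted. The libraries read the 3' end of transcripts, and the labels do not say which exons were removed, so a 3' tag outside the deleted exons checks nothing.

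In the library labelled Mll3 deleted, of 6508 genes that reached 20 CPM in either library, 36 were at least 2-fold higher than in control members (0.553%) and 53 at least 2-fold lower (0.814%), around a median log2 ratio of 0.0844. With the total taken without mitochondrial and ribosomal protein genes, 32 were higher and 100 lower, and with TMM factors 28 and 63. The largest ratios of genes with at least 50 CPM were Mt1 (2.05), Fosb (1.88), Selenom (1.67), Bex4 (1.64), Egr1 (1.46) and Fos (1.45), and the smallest Tnip3 (-2.60), Lst1 (-2.46), Gm2a (-2.26), Tspan32 (-1.83), Fyb (-1.70) and Rnase6 (-1.64). Tnip3, an inhibitor of NF-kB signalling on chromosome 6 (65525313 to 65634040, plus strand, GRCm38), was at 67.4 CPM in control and 11.1 CPM in Mll3 deleted members. Mt1, the metal-binding metallothionein 1 on chromosome 8 (94179082 to 94180327, plus strand), was at 17.1 and 70.7 CPM. Each of these 12 ratios had the same sign in CD34 low and in MPP1 gate cells of the same 2 libraries, so none was seen in CD34 high cells alone. For Tnip3 the ratio was -1.13 in CD34 low cells and -2.22 in MPP1 gate cells.

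Immediate early genes, transcribed within minutes of a stimulus, were the list that stood highest in that library. All 10 measured at 20 CPM or more were above control, by 0.50 to 1.88 on the log2 scale (median 0.93), and 3 of them passed 2-fold. The median over all 6508 genes was itself above 0, at 0.0844. The share of all genes above control was not counted, which limits this count and those of the lists below. Jund was at 300 CPM in control and 551 CPM in Mll3 deleted members, and Fos at 32.3 and 88.0 CPM. As cell handling also induces these genes and each genotype is 1 library, genotype and preparation cannot be told apart. S phase genes were above control in 20 of 20 cases (median 0.36) and G2 and mitosis genes in 20 of 20 (median 0.54), with 1 and 0 past 2-fold. Top2a was at 382 and 478 CPM and Mki67 at 343 and 416 CPM. In CD34 low cells the ratio of Top2a was -0.06 and that of Mki67 0.02. In MPP1 gate cells, however, Mki67 was at 224 CPM in control and 362 CPM in the Mll3 deleted library. The summed G2 and mitosis list there was at 1506 and 2535 CPM, against 2075 and 2778 CPM in members and 1604 and 1618 CPM in CD34 low cells. The higher level was thus not seen in CD34 high cells alone. Of the 17 long-term stem cell genes at 20 CPM or more 5 were above control (median -0.12, and 0.02 with thinned cells), with Ifitm1 at 624 and 324 CPM and Procr at 51.2 and 29.2 CPM.

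In the library labelled Mll4 deleted, 235 of 6573 genes were at least 2-fold higher (3.58%) and 162 at least 2-fold lower (2.46%) than in control members, around a median of -0.0638. Only 103 cells stand behind these values. The lowest ratios were Tpm3-rs7 (-4.98), Ltb (-2.67), Tspan32 (-2.52), Neurl3 (-2.51), Apoe (-2.48) and S100a6 (-2.24). Tpm3-rs7 is a near copy of Tpm3, so its reads may be split between the genes and its value is uncertain; it was at 99.3 CPM in control, 235 CPM in Mll3 deleted and 2.98 CPM in Mll4 deleted members. Apoe was at 601, 574 and 108 CPM, and its ratio of Mll4 deleted to control cells was -2.05 in the CD34 low and -2.43 in the MPP1 gate. Each of the 6 lowest ratios had the same sign in both other gates. Tspan32, a tetraspanin of blood cells on chromosome 7 (143005046 to 143019644, plus strand, GRCm38), was low in both deleted libraries, at 185, 52.2 and 32.2 CPM, and it was lower than control in the CD34 low and MPP1 gates of both as well (-1.64 and -2.08 for Mll3 deleted, -2.11 and -2.73 for Mll4 deleted). Both ratios share the control library.

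The highest ratios were Mpo (4.49), Bc1 (3.96), S100a8 (3.84), Mt1 (3.51), Snhg9 (3.48) and Cpa3 (3.40). Mpo, the neutrophil myeloperoxidase, was at 4.58, 10.0 and 104 CPM in members but at 174, 196 and 3781 CPM in all kept barcodes of the 3 libraries. S100a8 was at 62.0 CPM in Mll4 deleted members and 2292 CPM in that whole library, and Elane, neutrophil elastase, at 44.8 and 1997 CPM. Mpo in Mll4 deleted HSC gate cells was at 118, 113 and 108 CPM in the 3 CD34 bins of at least 20 barcodes. The part of RNA from outside the cells in these values was not tested. Cpa3, a mast cell protease, fell from a ratio of 3.40 to 1.48 when the 1 member rich in mast cell markers was left out. Mt1 was at 17.1, 70.7 and 195 CPM and was higher in both deleted libraries than in control, in members and in whole libraries (19.8, 65.0 and 221 CPM).

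Of the 18 long-term stem cell genes at 20 CPM or more, 6 were above control in Mll4 deleted members (median -0.08). The median over all 6573 genes was -0.0638, and the share of them above control was not counted. Of the 18, 1 was at least 2-fold higher and 1 at least 2-fold lower (-1.34). The higher one was Mecom, at 341 CPM (320 to 362), against 131 CPM in control and 121 CPM in Mll3 deleted members. The ratio of Mecom to control was 1.37, and it was 1.41 in CD34 low and 1.31 in MPP1 gate cells, while the whole libraries had 87.5, 102 and 107 CPM. Of 9 megakaryocyte priming genes at 20 CPM or more, 3 were above control and 2, Pf4 and Gp9, at least 2-fold below (median -0.72). That median was -0.14 at a minimum of 50 CPM and -0.01 with cells thinned to 3000 UMIs. G2 and mitosis genes were above control in 20 of 20 cases with a median of 0.49, but that median was 0.13 under a stricter cell filter (2000 or more genes, mitochondrial share 5% or less), and the S phase median went from 0.31 to 0.07. Immediate early genes had a median of -0.29, with Jund at 110 CPM, and that median was 0.01 with the CD34 threshold raised by 0.5. MHC class II genes had a median of 0.94 over 6 genes, with H2-Eb1 at 43.7, 71.5 and 142 CPM in members and at 60.03, 121 and 626 CPM in whole libraries.

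**Figure D5:**
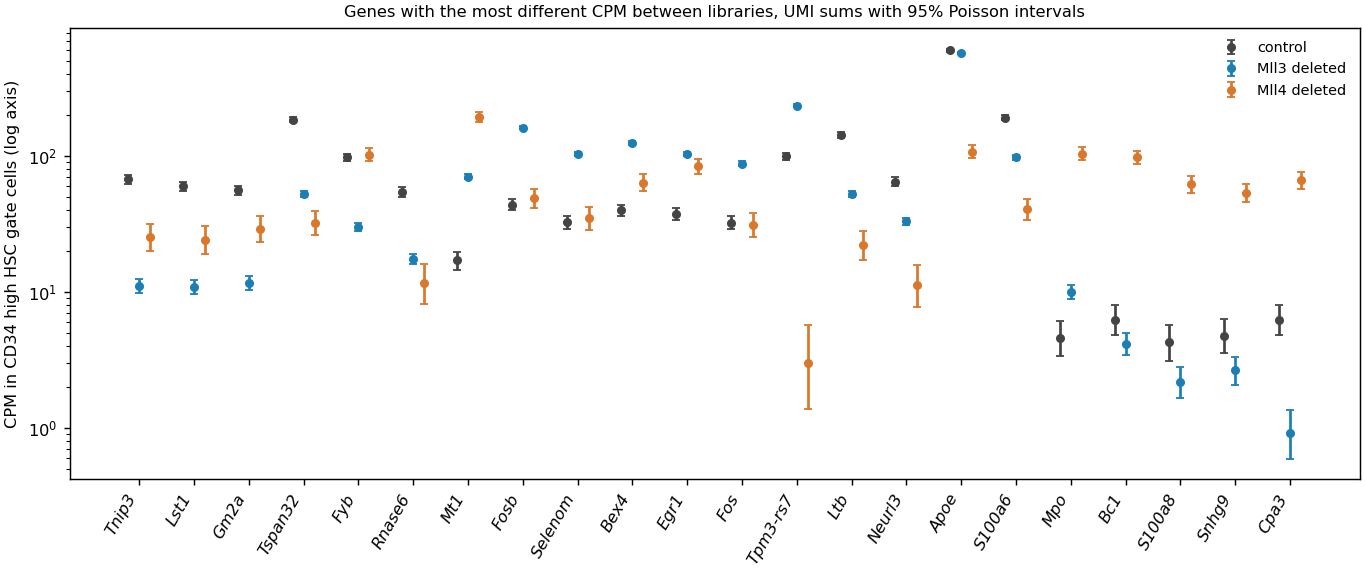
CPM (log axis) of the genes with the most different levels between libraries in CD34 high HSC gate cells, with 95% Poisson intervals of the UMI sums, for control, Mll3 deleted and Mll4 deleted members. Tspan32 is highest in control (185 CPM), Mt1 lowest in control (17.1 CPM), and Mpo is at 104 CPM in Mll4 deleted members against 4.58 CPM in control.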

How the data were processed

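Gene and antibody UMI counts per barcode were deposited by the authors as Cell Ranger matrices, produced with Cell Ranger 6.1.1 on mm10 per the submitters' processing notes and with 10x 3' version 3.1 chemistry per the labels' protocols. The count of a gene is whole UMIs, and 32285 genes were listed. The filter on barcodes asked for 1000 or more genes and a mitochondrial share of 10% or less. Doublets were kept, as the selection rule does; scanpy 1.11.5's scrublet marked under 0.5% of barcodes in 2 of 3 libraries and was taken not to have worked there, so removal of the highest scores is an alternative. The members and gene lists were chosen with earlier results of these data known.

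Counts were summed per gate and library (9 sums) and tested with edgeR 4.0.16's quasi-likelihood test (R 4.3.3), TMM scaling and library as block; Benjamini-Hochberg adjusted p under 0.05 was called, a positive log2 difference means higher in CD34 high cells, and the script was tested on simulated data. The block takes up the differences between whole libraries. The p-values rest on how far the differences among the 3 gates vary from library to library, and the libraries are of different genotypes. Between genotypes, 0.5 UMIs were added and a log2 ratio of 1 was called. Named genes were, between gates, the 8 highest and 8 lowest called genes of at least 10 CPM with 1 sign in all libraries and, between genotypes, the 6 highest and 6 lowest ratios of at least 50 CPM, leaving out mitochondrial, ribosomal protein, haemoglobin, immunoglobulin, X-inactivation, Y-linked and unnamed genes. Members of the 14 lists were also named. Alternatives included DESeq2 1.42.0, thinning to 3000 UMIs, each library left out and, chosen after seeing the data, omission of barcodes rich in markers of other cell types.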

Additional observations from a re-analysis of the deposited data

Results flagged for a closer look

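A gene list is given here where its median log2 ratio of CPM pointed 1 way in some libraries and the other way in the rest, which was not tested. For CD34 high against CD34 low HSC gate cells, the myeloid priming median was 0.06 in control, -0.14 in Mll3 deleted and -0.13 in Mll4 deleted cells. The MHC class II median was -0.22, -0.55 and 0.07 in the same order. For CD34 high HSC gate against MPP1 gate cells, the median of the quiescence and cell cycle inhibitor list was -0.09, -0.03 and 0.16. The immediate early median was -0.20, 0.02 and 0.30. Several of these medians lie close to 0, and each library is 1 sample.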

How the results depend on the processing

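With 3 libraries of 3 genotypes, the number of calls depends on depth and on the test. The gate comparisons are paired by library, which is the block of the reported fit; the labels carry no replicate numbers that could pair genotypes. Of genes called between CD34 high and CD34 low cells, 1625 became 836 with DESeq2, 1047 with the stricter cell filter, 830 with cells thinned to 3000 UMIs (10996 genes tested), and 410 to 1356 with 1 library left out. Against the MPP1 gate, 1118 became 559 with DESeq2, 1697 with no filter on low counts, 383 with thinned cells and 404 to 855 with 1 library left out. Genes past 2-fold went from 89 to 34 (Mll3 deleted) and from 397 to 221 (Mll4 deleted) at a minimum of 50 CPM, by construction fewer genes, and the Mll4 count went to 1014 with thinned cells, whose sum held 309000 UMIs.

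Of all kept barcodes, members were 7.04, 19.8 and 1.54% in control, Mll3 deleted and Mll4 deleted libraries with the CD34 threshold raised by 0.25, and 12.9, 27.6 and 3.05% with it lowered; of the HSC gate they were 30.5, 45.3 and 21.2%, and 56.0, 63.2 and 41.8%. With the stricter filter the control shares were 8.31% and 40.2%, and with CD34 relative to CD117 the Mll3 deleted shares were 19.2% and 44.0%. The Mll4 deleted library was the lowest and the Mll3 deleted library the highest in each of these settings, though the intervals of control and Mll3 deleted cells overlapped within the HSC gate when CD34 was taken relative to CD117.

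Signs turned for S100a8 between CD34 high and low cells (0.02 without barcodes rich in other markers) and for 9 list medians between genotypes. In Mll3 deleted members the megakaryocyte median went from -0.25 to 0.04 at 50 CPM and the long-term stem cell median 0.02 with thinned cells. In Mll4 deleted members the myeloid median became -0.57 at 50 CPM and -0.03 with the CD34 threshold raised by 0.5, the lymphoid -0.11 at 50 CPM, the H3K4 complex -0.18 at 50 CPM and -0.05 with the stricter filter, the quiescence went from -0.29 to 0.19 with thinned cells and the immediate early from -0.29 to 0.01 with the raised threshold. The cause was not tested. Named genes between gates kept their call in 346 of 367 alternatives.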
